A study of Homo sapiens with 54 samples.

Results

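RNA bound to Argonaute proteins was compared between H4 cells transfected with miR-103 and H4 cells transfected with a negative control RNA. The 6 arrays concerned, 3 per group, were chosen by their labels from the 54 arrays of the series. H4 is a human cell line described in the labels as having a glioneuronal phenotype. Cells were transfected with one of 9 small RNAs and harvested 48 h later, and each condition had 3 biological replicates. The miR-103 group received a miR-103 mimic, and the control group received the commercial negative control RNA from Ambion. The other groups used for comparison received miR-107, miR-16, miR-195, miR-320, miR-15b* (the anti-sense strand, named as a control in the labels), miR-107-mut1 or miR-107-mut2. For every transfection, RNA was profiled in the total lysate and after immunoprecipitation (IP) with the 2A8 monoclonal antibody against Argonaute. All groups share the H4 background, the transfection and, in the IP, the antibody, and all results are from a single cell line given an RNA from outside.

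MicroRNAs guide Argonaute proteins to messenger RNAs that pair with them, mainly through the bases of the seed near the 5′ end. The guided complex recruits TNRC6 proteins and deadenylases, which lower translation and shorten the life of the transcript. An mRNA that is held by the complex can therefore be recovered with an antibody against Argonaute while its total level falls. The miR-103 and miR-107 genes lie in introns of pantothenate kinase genes, and both microRNAs are abundant in brain.

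The mature sequences are shown because the comparisons below set miR-103 against a near twin and against a relative with a shifted seed. They are RefSeq sequences (GRCh38.p14), read 5′ to 3′, with the seed, bases 2 to 8, in capitals; the letters of the transfected mimics were not given in the sources used here.
hsa-miR-103a-3p: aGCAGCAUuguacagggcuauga
hsa-miR-107: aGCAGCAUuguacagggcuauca
hsa-miR-16-5p: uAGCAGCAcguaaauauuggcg
hsa-miR-195-5p: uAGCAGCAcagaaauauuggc
miR-103a-3p and miR-107 share the seed and differ by G22C, counted from the 5′ end. Their longest run in common with miR-16 and miR-195 is AGCAGCA, which starts at base 1 of miR-103a-3p and at base 2 of miR-16-5p and miR-195-5p. miR-103a-3p is encoded at chr5:168560904-168560926 on the minus strand and at chr20:3917541-3917563 on the plus strand, and miR-107 at chr10:89592756-89592778 on the minus strand.

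The arrays measured gene transcripts rather than the mimic. The probe set for the gene MIR103A1 read 1.66, 1.97 and 1.80 in the miR-103 IP, against 1.61, 1.80 and 1.65 in the control IP, on the log2 scale of the deposited values. Those for MIR103A2 read 1.90, 1.92 and 1.95 in the miR-103 IP, against 1.73, 2.15 and 1.79 in the control IP. Both genes fell below the filter on low values, so the arrays give no check of the transfection. Of 18417 genes, the 11050 above the lowest 40% by mean level were tested. All IP arrays averaged 3.61 to 3.65 and all lysate arrays 7.11 to 7.17, so a level in one fraction cannot be set against a level in the other. Values on an array are relative, so less RNA bound per cell and a smaller share of the bound RNA cannot be told apart. Replicates of the miR-103 IP correlated at 0.951 to 0.966 across genes and those of the control IP at 0.952 to 0.967. In the control lysates the neuronal genes ranked from high to low, with UCHL1 at the percentile 99.4 of genes on the array, ENO2 at 70.8, MAP2 at 56.9, NEFL at 32.8 and GAP43 at 20.5. The astrocyte genes GFAP and S100B stood at 29.9 and 4.8, the intermediate filament genes VIM and NES at 98.8 and 33.9, and the leukocyte genes CD14 and PTPRC at 22.9 and 1.9.

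The miR-103 IP differed from the control IP in both directions, and more genes were lower than higher. In a limma fit over all 27 IP arrays, 224 of 11050 genes (2.03%) passed an adjusted p of 0.05. Of these, 26 were higher (0.235%) and 198 were lower (1.79%) in the miR-103 IP. At an unadjusted p under 0.05 there were 1809 genes. The replicates of the groups did not overlap for any of the 224 genes, as for 3591 (32.5%) of all genes tested. Of the called genes, 218 code for protein. The direction split depended on the scaling: cyclic loess within the IP fraction gave 441 calls (3.99%), 97 higher (0.878%) and 344 lower (3.11%), and quantile normalization gave 92 higher and 242 lower. Loess also moved the median change of all genes tested to 0.021 after loess, against -0.085 in the deposited values. After loess 25 of the 26 rises and 169 of the 198 falls were still called.

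GRN, which encodes progranulin, a secreted and lysosomal growth factor whose loss causes frontotemporal dementia, had the largest rise. It lies at chr17:44345302-44353106 (GRCh38.p14). Its level was 11.41, 12.46 and 11.67 in the miR-103 IP, against 7.46, 7.58 and 7.85 in the control IP. Every miR-103 array was above every control array by a wide gap. The means were 11.8 ± 0.545 in the miR-103 IP and 7.63 ± 0.200 in the control IP (SD, n = 3 each). The change was 4.22 ± 0.48 (SE) on the log2 scale, or 18.6-fold, with a limma adjusted p of 2e-05. After cyclic loess it was 4.87.

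IER3IP1, a small membrane protein of the endoplasmic reticulum, was next. The gene lies at chr18:47152834-47176364 (GRCh38.p14). It read 9.84, 10.03 and 9.30 in the miR-103 IP, against 6.06, 5.09 and 6.61 in the control IP. The control arrays were more scattered than the miR-103 arrays but remained well below them. The change was 3.81 ± 0.39 (SE; limma adjusted p = 4.7e-06).

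**Figure D1:**
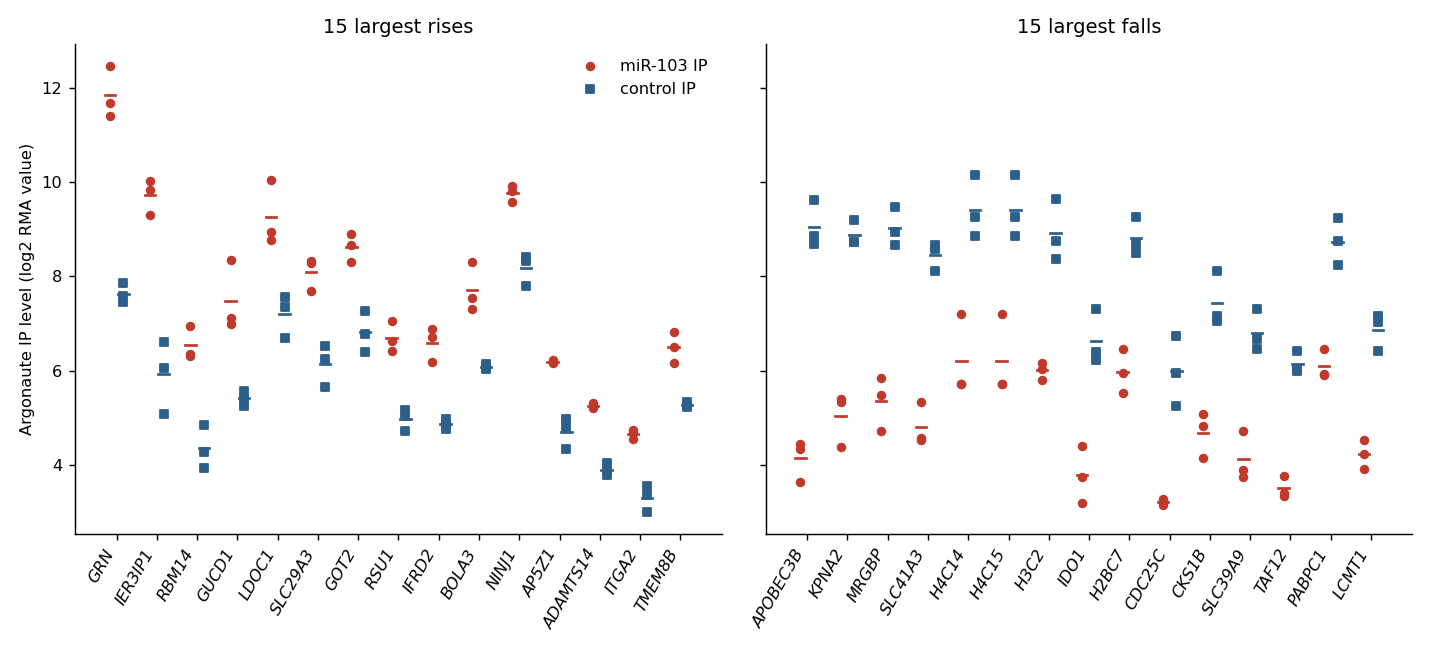
Log2 RMA values of the 15 largest rises and the 15 largest falls in the miR-103 IP (red circles) beside the control IP (blue squares), one point per array and a bar at each mean. No gene shown has overlapping replicates; GRN and IER3IP1 stand apart among the rises with changes of 4.22 and 3.81.

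The other rises were smaller. SLC29A3, a lysosomal nucleoside transporter, read 7.68, 8.32 and 8.29 in the miR-103 IP, against 6.53, 5.65 and 6.25 in the control IP. Its change was 1.95 ± 0.37 (SE; limma adjusted p = 0.0054). GOT2, the mitochondrial aspartate aminotransferase, read 8.66, 8.91 and 8.30 in the miR-103 IP, against 6.39, 6.78 and 7.26 in the control IP, a change of 1.81 ± 0.30 (limma adjusted p = 0.0018). BOLA3, which helps to assemble iron-sulphur clusters in mitochondria, read 7.30, 8.31 and 7.54 in the miR-103 IP, against 6.14, 6.03 and 6.08 in the control IP, a change of 1.63 ± 0.23 (limma adjusted p = 0.00031). In each of these 3 genes the groups did not overlap. RSU1, a Ras suppressor found at focal adhesions, rose by 1.73, as did IFRD2. AP5Z1, a subunit of the AP-5 adaptor of late endosomes, rose by 1.48, and RILPL2, a Rab effector, by 0.89.

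Those 9 genes (GRN, IER3IP1, SLC29A3, GOT2, RSU1, IFRD2, BOLA3, AP5Z1 and RILPL2) were called in all 19 alternatives listed for that comparison, which comprise the 6 fits that leave out 1 array of the miR-103 or control IP and settings such as cyclic loess, quantile normalization and other filters. The remaining rises lost their call in at least 1 of those fits. RBM14, a nuclear RNA-binding coactivator, changed by 2.19, GUCD1 by 2.06, LDOC1 by 2.05 and NINJ1, a membrane protein of plasma membrane rupture, by 1.59. ADAMTS14, which trims procollagen, changed by 1.36, ITGA2, the collagen-binding integrin subunit, by 1.35, and TMEM8B by 1.23. The 11 rises outside the 15 largest, which include the stable RILPL2, lay between 0.72 and 1.14. The count of rises was 9 without control replicate 3 and 13 without miR-103 replicate 1, without miR-103 replicate 2 or without control replicate 2. It was 15 without miR-103 replicate 3 and 17 without control replicate 1.

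The rises were also followed through the other IP groups. GRN averaged 11.8 in the miR-103 IP, 11.6 in the miR-107 IP, 10.6 in miR-107-mut2, 10.1 in miR-16 and 9.54 in miR-195. It averaged 7.60 in miR-107-mut1, 7.19 in miR-320, 6.21 in miR-15b* and 7.63 in the control. The GRN arrays of the miR-103 and miR-107 groups overlapped, and so did those of miR-107-mut2 and miR-16 and those of miR-16 and miR-195. IER3IP1 showed another pattern, at 9.72 in the miR-103 IP and 9.28 in the miR-107 IP. In the other 7 groups IER3IP1 lay between 4.89 and 5.92. SLC29A3 likewise averaged 8.10 and 7.81 in the miR-103 and miR-107 groups, and between 5.30 and 6.28 in the others.

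The miR-103 and miR-107 groups had the 2 highest means of the 9 in 15 of the 26 rises, and in 710 of all 11050 genes. A gene called higher in the miR-103 IP is partly chosen for that position, so nothing is read from this count. With the miR-320 and miR-15b* groups as the reference in place of the negative control, 303 genes (2.74%) were called, 78 of them higher (0.706%). This alternative, added after the data were seen, shares the miR-103 arrays with the main comparison. Measured so, GRN changed by 5.14 and IER3IP1 by 4.30, and the 9 stable rises lay between 0.94 and 5.14. ITGA2 ran the other way, at -0.41 with a limma adjusted p of 0.34.

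**Figure D2:**
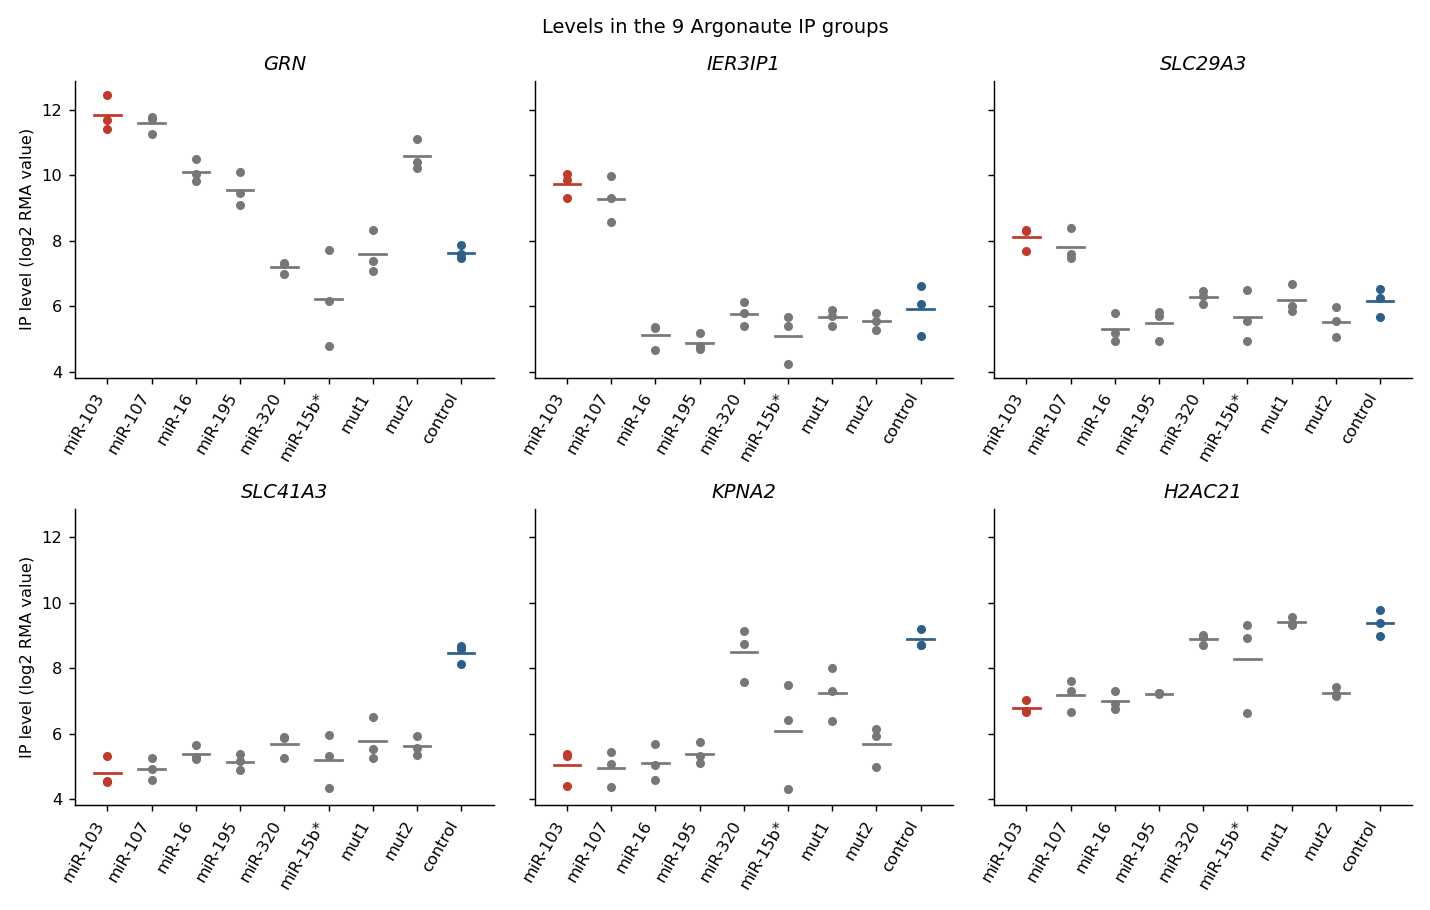
Log2 RMA values of 6 genes on the 3 arrays of each of the 9 IP groups, with miR-103 in red at the left, the negative control in blue at the right and a bar at each mean. IER3IP1 and SLC29A3 were high in the miR-103 and miR-107 groups, GRN also in miR-107-mut2, miR-16 and miR-195, and SLC41A3 was high in the control alone.

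Set directly against the miR-107 IP, no gene passed the test (0.00% called by limma, with 364 genes at an unadjusted p under 0.05), and none did in any alternative run. GRN differed by 0.26, with a 95% interval from -0.72 to 1.25, and IER3IP1 by 0.45, with an interval from -0.36 to 1.24. Intervals of this width leave room for differences of about 1 log2 unit in either gene. For TMEM8B the interval ran from 0.40 to 1.62 and for IFRD2 from 0.18 to 1.45. Unadjusted intervals excluded 0 for 8 of the 26 rises, all with miR-103 above miR-107, and for 4 of the 198 falls. The rises were chosen for high values on the same miR-103 arrays, which favours that direction, so nothing is read from these counts.

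Against the miR-16 IP, 13 genes passed the limma test, 12 higher (0.109%) and 1 lower (0.00905%) in the miR-103 IP. IER3IP1 read 9.84, 10.03 and 9.30 in the miR-103 IP, against 5.33, 4.67 and 5.36 in the miR-16 IP, a difference of 4.60 ± 0.39 (SE; adjusted p = 3.8e-07). SLC29A3 was higher by 2.80, LDOC1 by 2.62, GUCD1 by 2.53 and GOT2 by 2.32, and none of their replicates overlapped. RSU1, IFRD2, NINJ1, BOLA3, ZDHHC4, IRF2BPL and SIX5 made up the rest, between 0.98 and 2.05. This comparison shares the miR-103 arrays with the one against the control. GRN differed by 1.74 ± 0.48 (SE), which did not pass the limma test (adjusted p = 0.43). PCOLCE, an enhancer of procollagen C-proteinase, was the gene lower in the miR-103 IP, at 9.14, 9.43 and 9.34, against 11.98, 11.28 and 12.16 in the miR-16 IP. Its difference was -2.50 ± 0.37 (SE; adjusted p = 0.0019). Against the control IP the change of PCOLCE was -0.02 as deposited and 0.65 after cyclic loess (limma adjusted p = 0.033). The total was 6 without miR-103 replicate 2 or miR-16 replicate 2, 8 without miR-103 replicate 3, and 33 after cyclic loess.

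APOBEC3B, a cytidine deaminase that edits DNA, had the largest fall. It read 4.33, 4.45 and 3.64 in the miR-103 IP, against 8.86, 8.69 and 9.62 in the control IP. The change was -4.92 ± 0.64 (SE; 30.2-fold lower, limma adjusted p = 0.00013). KPNA2, the importin that carries nuclear proteins, read 4.39, 5.39 and 5.33 in the miR-103 IP, against 8.72, 8.72 and 9.20 in the control IP. Its change was -3.84 ± 0.58 (SE; limma adjusted p = 0.00066). In both genes more than 3 log2 units separated the nearest arrays of the groups.

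MRGBP, a subunit of the NuA4 histone acetyltransferase, read 5.85, 5.48 and 4.73 in the miR-103 IP, against 8.94, 8.67 and 9.48 in the control IP. Its change was -3.68 ± 0.41 (SE; limma adjusted p = 1.9e-05). SLC41A3, a magnesium transporter, read 4.53, 4.57 and 5.33 in the miR-103 IP, against 8.12, 8.67 and 8.58 in the control IP, a change of -3.65 ± 0.35 (limma adjusted p = 2.5e-06). TAF12, a subunit of the TFIID and SAGA complexes, read 3.40, 3.34 and 3.77 in the miR-103 IP, against 6.04, 5.99 and 6.42 in the control IP. With -2.65 ± 0.21 (SE) it had an adjusted p of 1.3e-07. The groups did not overlap in any of the 3 genes.

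For these 3 genes the control stood apart from every other group, not from miR-103 alone. SLC41A3 averaged 4.81 in the miR-103 IP and between 4.93 and 5.78 in the other transfected groups, against 8.46 in the control. MRGBP averaged 5.35 in the miR-103 IP and between 5.13 and 6.25 in the other transfected groups, against 9.03 in the control. TAF12 averaged 3.50 in the miR-103 IP and between 2.96 and 3.72 in the other transfected groups, against 6.15 in the control. Measured against miR-320 and miR-15b* instead, the changes were -0.64 for SLC41A3 (limma adjusted p = 0.25), -0.52 for MRGBP (0.44) and -0.04 for TAF12 (0.93). NPTN, the adhesion protein neuroplastin, changed by -2.36 against the control IP and by -0.26 against those groups.

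The control had the highest mean of the 9 IP groups in 130 of the 198 falls and in 1588 of all genes tested; a gene called lower than the control is partly chosen for that position. With miR-320 and miR-15b* as the reference, 225 genes (2.04%) were called lower. Among the 198 falls, 58 were called in that comparison, and 19 of the 26 rises were.

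Other falls were graded over the groups. KPNA2 averaged 5.04 in the miR-103 IP, 4.97 to 5.39 in miR-107, miR-16 and miR-195, 5.67 in miR-107-mut2, 6.08 in miR-15b*, 7.23 in miR-107-mut1, 8.49 in miR-320 and 8.88 in the control. KPNA2 changed by -2.25 and APOBEC3B by -3.10 against miR-320 and miR-15b* (limma adjusted p = 0.014 and 0.002). Array 1 of miR-15b* stood apart from the other IP arrays, with a median correlation of 0.821, and its KPNA2 value was 4.32 beside 6.42 and 7.50 in the other miR-15b* replicates.

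The count of falls depended on single arrays. Falls numbered 37 without control replicate 3, 69 without miR-103 replicate 2, 75 without miR-103 replicate 1 and 91 without miR-103 replicate 3. They numbered 118 without control replicate 1 and 152 without control replicate 2. Of the 198, 35 were called whichever array was left out. These 35 lay between -1.04 and -4.92 and included APOBEC3B, KPNA2, MRGBP, SLC41A3, TAF12, IDO1, CDC25C, PABPC1, LCMT1, H2AC21, XRCC1, TYMS and NPTN.

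Replication-dependent histone genes, which make the histones of newly copied DNA, gave the most falls of any list examined. Of 32 tested, 15 fell and 0 rose, beside 1.79% of all genes called lower, and the median change was -1.44. After cyclic loess 19 were lower and the median was -1.14. H2AC21 read 6.69, 6.66 and 7.03 in the miR-103 IP, against 8.97, 9.38 and 9.77 in the control IP, a change of -2.58 ± 0.42 (SE; limma adjusted p = 0.0015). H3C2 changed by -2.92 and H2BC7 by -2.84. Histone copies may share probes: H4C14 and H4C15, which are outside the list and its count, had equal values on all 54 arrays and count as 1 measurement (-3.21). H2AC21 averaged 6.80 in the miR-103 IP, 6.99 to 7.26 in miR-107, miR-16, miR-195 and miR-107-mut2, 8.29 in miR-15b*, 8.89 in miR-320, 9.42 in miR-107-mut1 and 9.37 in the control. Leaving out control replicate 3 left 3 histone calls, and leaving out miR-103 replicate 1 or 2 left 6.

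Cytosolic ribosomal protein genes were second. Of 53 tested, 11 fell and 0 rose, beside 1.79% of all genes called lower, and the median change was -0.84. They are abundant in the IP, with a median level of 6.60 in the miR-103 IP and 7.72 in the control IP. Among those that fell, the probe sets of RPL12, RPL23A, RPL34 and RPS28 are numbered among those of genes on other chromosomes. Their values are therefore less certain. RPL30 read 6.83, 6.89 and 6.95 in the miR-103 IP, against 8.80, 8.65 and 8.50 in the control IP (-1.76 ± 0.36, SE, limma adjusted p = 0.011). The count for this list was sensitive to processing: 4 were called after cyclic loess, where the median was -0.34, and between 0 and 3 when any array of the miR-103 or control IP was left out.

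The change depended on signal level. Among the tenth of genes with the highest IP means, 6.43 to 12.72, the median change was -0.55 as deposited and -0.03 after loess, and 70 of the 198 falls lay there. The spread over genes was smaller on the miR-103 IP arrays, with SDs of 1.69 to 1.79, than on the control IP arrays, with SDs of 1.84 to 1.99. The part of this level dependence in the ribosomal protein falls was not tested apart from the loess values given here.

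**Figure D3:**
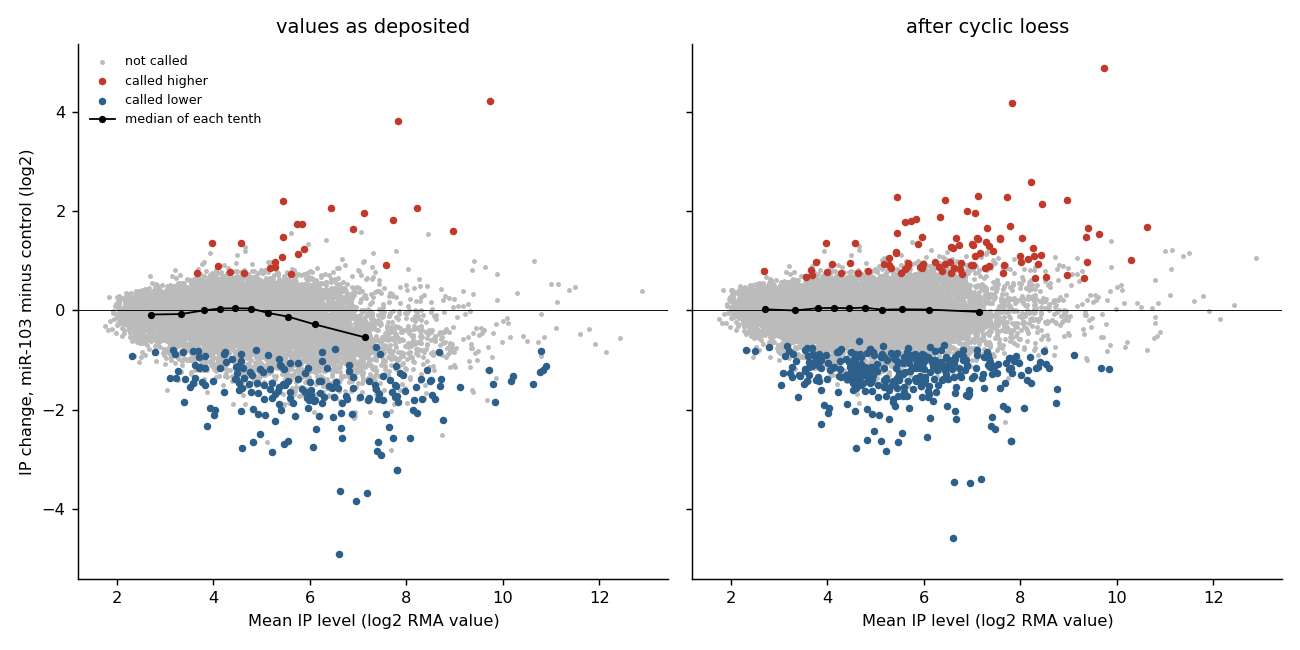
Change in the IP (log2, miR-103 minus control) against the mean log2 level of those 6 arrays for 11050 genes, as deposited at the left and after cyclic loess at the right, with called genes coloured and the black line joining the medians of 10 equal groups by level. The median of the highest group was -0.55 as deposited and -0.03 after loess.

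Genes of mRNA decay followed. Of 28 genes of deadenylation, decapping and AU-rich decay, 4 fell and 0 rose, beside 1.79% of all genes called lower, and the median was -0.59. PABPC1, the cytoplasmic poly(A)-binding protein, read 6.46, 5.90 and 5.92 in the miR-103 IP, against 9.23, 8.24 and 8.75 in the control IP (-2.64 ± 0.43, SE, limma adjusted p = 0.0015). ZFP36 and ZFP36L1, which bind AU-rich elements and promote decay, changed by -2.22 and -1.64, and DCP1B, a decapping cofactor, by -1.12. PABPC1 has close copies in the genome, so its value is less certain. The list held 1 fall without miR-103 replicate 2 or control replicate 3 and 2 without miR-103 replicate 1. Among 27 genes of the Argonaute machinery, the 1 that fell was PTGES3, the p23 co-chaperone (-1.55). Beside 1.79% of all genes, nothing is read from 1 call.

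Cell cycle genes fell in part. CDC25C, the phosphatase that starts mitosis, read 3.23, 3.15 and 3.27 in the miR-103 IP, against 5.96, 5.26 and 6.74 in the control IP (-2.77 ± 0.46, SE, limma adjusted p = 0.0018). It was 1 of 3 mitosis genes of 20 that fell, with PLK1, a mitotic kinase (-2.13), and NUSAP1, a spindle protein (-1.17). In the G1 to S list 2 of 20 fell, the CDK subunit CKS1B (-2.76) and the E2F partner TFDP1 (-2.13). The probe set of CKS1B is numbered among those of genes on another chromosome, so its value is less certain. In the DNA replication list 4 of 29 fell, TYMS, GINS1, GINS2 and MCM3, between -2.49 and -1.36. Over all genes tested 1.79% were called lower and 0.235% higher, and none of these 3 lists had a rise. Without control replicate 3 they held 1 fall in mitosis, 0 in G1 to S and 1 in DNA replication. The G1 to S list held 1 fall without any other single array, and the DNA replication list 1 without miR-103 replicate 1 and 2 without miR-103 replicate 2 or control replicate 2.

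Apart from GRN, no listed target of miR-103 and miR-107 was called. Of 25 published targets, 21 were tested, and GRN was the only 1 called in the deposited values. CPEB3 and SALL4 were below the filter. The other 20 tested targets lay between -0.85 and 0.34, and 12 of them were below 0. The list median was -0.18 as deposited and 0.04 after loess, so its sign turned with the scaling. The median level of the list was 4.22 in the miR-103 IP and 4.09 in the control IP. Over all genes tested the median levels were 4.59 and 4.64. Some targets were low in both groups, such as CLOCK at 2.3 and 2.4, so a missing call there says little about binding. DICER1, the enzyme that cuts microRNA precursors, read 3.07, 3.20 and 3.08 in the miR-103 IP, against 3.46, 3.90 and 4.55 in the control IP. Its change of -0.85 ± 0.26 (SE) missed the threshold (limma adjusted p = 0.091) and passed it after cyclic loess (-0.79, adjusted p = 0.041).

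Among the rest of that list, CDK6, a G1 kinase, changed by -0.51, BACE1, the beta-secretase that cuts the amyloid precursor, by -0.57 and CCNE1, cyclin E1, by -0.56, and none of the 3 passed. LATS2, a kinase of the Hippo pathway, changed by 0.03, KLF4 by 0.19 and AXIN2, a Wnt inhibitor, by 0.34. TIMP3 (-0.75), CFL1 (-0.49), ARNT (-0.41), NOTCH2 (-0.41), CAV1 (-0.34), CACNA2D1 (-0.22), CLOCK (-0.18) and ADAM10 (-0.10) were likewise not called. GPRC5A (0.02), DAPK1 (0.04), NF1 (0.07), CRKL (0.16) and CDK5R1 (0.21) lay near 0. The host genes PANK1, PANK2 and PANK3 changed by 0.11, 0.04 and -0.06. Among 29 genes published as targets of the miR-15/16/195 family, ITGA2 alone was called, and it was higher.

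**Figure D4:**
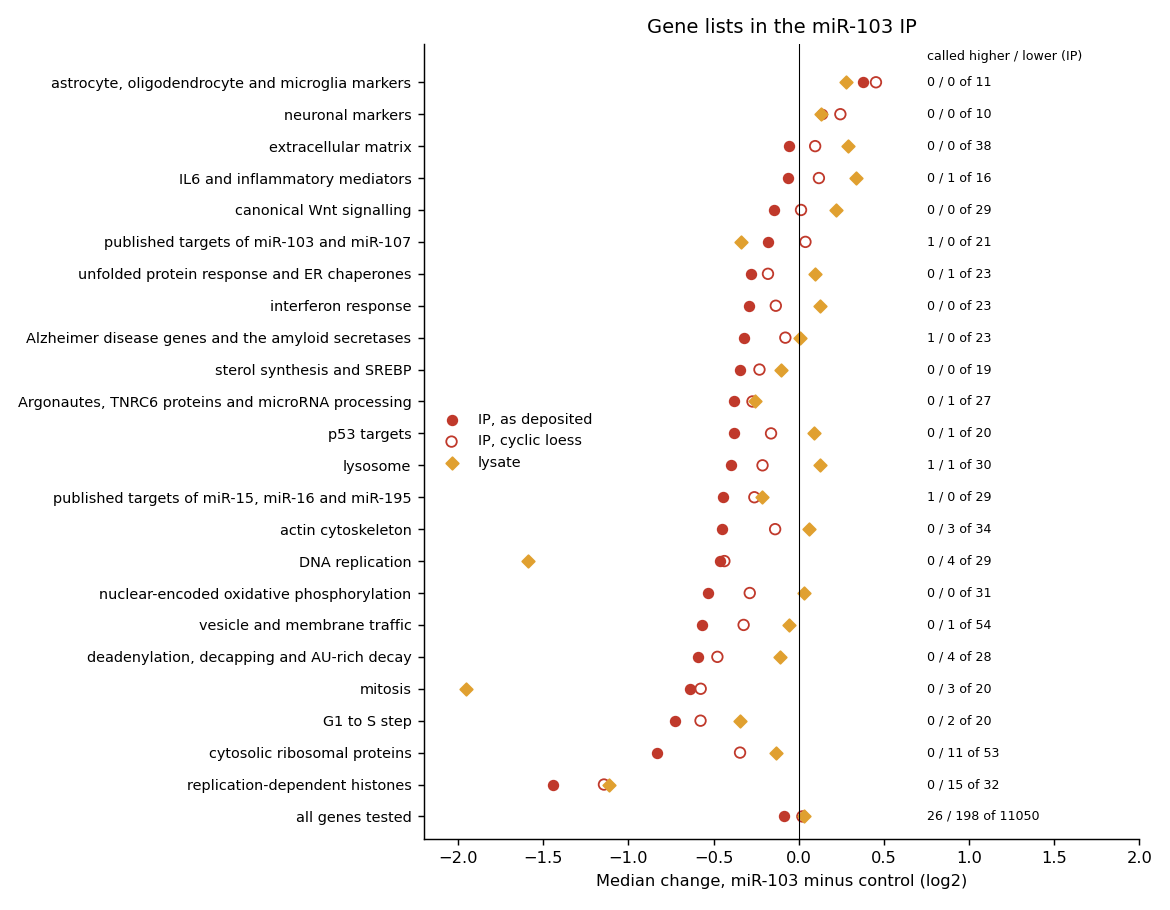
Median log2 change (miR-103 minus control) of each gene list with 10 or more tested genes, in the IP as deposited (filled circles), in the IP after cyclic loess (open circles) and in the lysate (diamonds), with the counts called higher and lower in the IP at the right. Histones had the lowest IP median (-1.44), while mitosis and DNA replication had the lowest lysate medians (-1.95 and -1.59).

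The total lysates of the same groups showed whether a gene's IP change went with its total level. In the lysate 925 genes (8.37%) were higher and 981 (8.88%) lower with miR-103. Of the 26 IP rises, 3 rose in the lysate (11.5% of the IP rises, 0.324% of the lysate rises) and 6 fell (23.1% of the IP rises, 0.612% of the lysate falls). Of the 198 IP falls, 69 fell in the lysate (34.8% of the IP falls, 7.03% of the lysate falls) and 11 rose (5.56% of the IP falls, 1.19% of the lysate rises). Without control lysate replicate 2 the lysate gave 1182 calls instead of 1906.

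GRN averaged 11.5 ± 0.211 in the miR-103 lysate and 12.2 ± 0.158 in the control lysate (SD, n = 3 each), a fall of 0.69 on the log2 scale (change -0.69 ± 0.18, SE, limma adjusted p = 0.011). GUCD1 fell in the lysate too (-0.96, limma adjusted p = 0.00019). BOLA3 (-0.41), IFRD2 (-0.58), NINJ1 (-0.52) and TMEM8B (-0.57) also fell there. IER3IP1, at -0.42, did not pass (limma adjusted p = 0.12). ADAMTS14 (2.38), ITGA2 (1.86) and PTPRE (1.52) were the 3 that rose in both fractions. Among the 9 rises that held in every fit, 7 had a lysate change below 0, as did 5182 of all 11050 genes tested, and the 9 lay between -0.69 and 0.27.

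**Figure D5:**
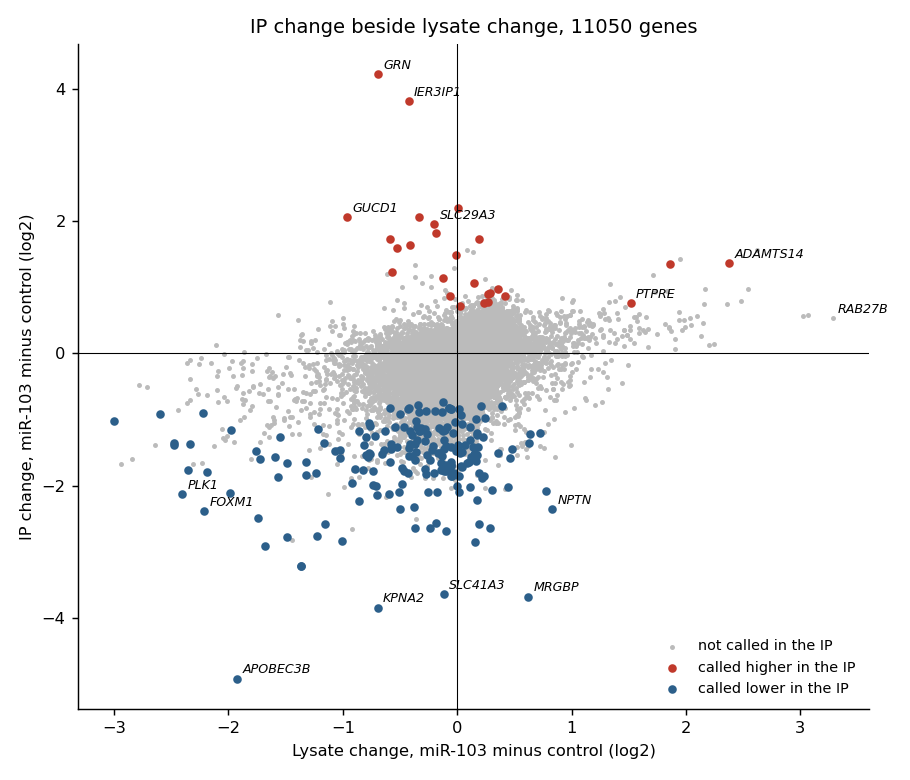
Change in the IP against change in the lysate (both log2, miR-103 minus control) for 11050 genes, with genes called in the IP coloured. GRN, IER3IP1 and GUCD1 lay high in the IP at lysate changes of -0.69, -0.42 and -0.96, and APOBEC3B was low in both fractions.

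APOBEC3B fell in the lysate as well (-1.92, limma adjusted p = 0.00039), and so did FOXM1, a transcription factor of the cell cycle, at -2.21 in the lysate and -2.39 in the IP. Over all genes tested 8.88% were called lower in the lysate, and the median lysate change was 0.03. Of the 32 histone genes 29 fell in the lysate, where the list median was -1.11. Mitosis and DNA replication genes fell further in the lysate than in the IP. In the lysate 19 of 20 mitosis genes fell, with a median of -1.95 beside -0.64 in the IP. In the lysate 27 of 29 DNA replication genes fell, with a median of -1.59 beside -0.46 in the IP. Their median IP levels were low, 3.30 and 3.77 in the miR-103 IP and 4.23 and 4.05 in the control IP. For ribosomal proteins the lysate median was -0.14, and 3 of 53 fell there. In the published target list 8 of 21 fell in the lysate, with a median of -0.34. They included CDK6 (-1.57), DICER1 (-1.81), CACNA2D1 (-1.99), BACE1 (-0.83) and GRN.

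The difference between the IP change and the lysate change was itself tested in one limma fit over both fractions. For 303 genes (2.74%) the difference passed, with the IP change higher in 116 (1.05%) and lower in 187 (1.69%). Which direction held more genes depended on the filter: with no filter 319 were higher and 224 lower, and with the lowest 60% left out 43 were higher and 154 lower. Cyclic loess gave 230 higher and 255 lower, and a common centre and spread 113 higher and 417 lower. Without any 1 replicate number of either group in both fractions, 168 to 188 genes passed. GRN, with a rise in the IP and a fall in the lysate, had the largest positive difference, 4.91 ± 0.53 (SE; adjusted p = 2.1e-08). MRGBP had the largest negative one, -4.30 ± 0.43 (SE; adjusted p = 7.3e-09), with a fall in the IP and a lysate change of 0.62. CDK6 and CACNA2D1 joined GRN as the listed targets with a positive difference, of 1.06 and 1.77, and both were low in the IP, at 3.24 and 2.92 in the miR-103 IP and 3.75 and 3.14 in the control IP. For APOBEC3B, which fell in both fractions, the difference was -2.99 (adjusted p = 0.016), and for FOXM1 the difference of -0.18 did not pass (adjusted p = 0.94). No histone gene of 32 passed this test in either direction, while 8 of 20 mitosis genes and 9 of 29 DNA replication genes did, with the IP change higher.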

How the data were processed

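Per the submitters' processing notes, the authors summarised the Affymetrix Human Gene 1.0 ST arrays with RMA in Affymetrix Expression Console 1.1. The deposited values were taken as log2, the scale RMA returns; the log base is not given in the sources used here. Of 33297 probe sets, 19460 with 1 gene symbol were used (1754 had several and 12083 none), and 19429 were matched to current names by gene ID. A gene with several probe sets was represented by its brightest on average. The lowest 40% by mean over all 54 arrays were left out. limma 3.58.1 in R 4.3.3 was fitted to all 27 IP arrays (9 groups), to all 27 lysate arrays, and to both for the difference of changes. Adjusted p-values are Benjamini-Hochberg over 11050 genes, and the threshold was 0.05. The number of arrays limits the precision. Scripts were tested on simulated data. Alternatives are given at the end.

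Named genes were the 15 largest rises and falls called with non-overlapping replicates, called list members (25 lists), all published miR-103/107 targets and PANK genes, and the 5 largest in each direction of the other contrasts; others were named after their values were seen. The members and lists were chosen with earlier results of these data known. Replicate number was not used as a block in the main fits. Some listed genes are not reported here.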

Additional observations from a re-analysis of the deposited data

Results flagged for a closer look

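The IP change and the lysate change were compared in one fit over both fractions (54 arrays), and the difference passed the limma test for 116 genes with the IP change higher and for 187 with it lower; with no filter on low values the counts were 319 and 224, so the larger direction depended on the filter. These results are listed because the same contrast differed between the 2 fractions. The largest positive differences were those of GRN (4.91), IER3IP1 (4.23), GUCD1 (3.02), LDOC1 (2.38) and IFRD2 (2.31). Their choice favours a positive IP change with a negative lysate change, and all 5 showed both. The largest negative differences were those of MRGBP (-4.30), SLC41A3 (-3.53), NPTN (-3.19), KPNA2 (-3.15) and IDO1, an enzyme of tryptophan breakdown (-3.01). MRGBP and NPTN rose in the lysate, by 0.62 and 0.83, while falling in the IP. Among genes that the IP comparison had called, 14 of the 26 rises and 81 of the 198 falls passed, a count that shares the IP arrays with those calls. In the gene lists, 5 of 53 ribosomal protein and 4 of 28 mRNA decay genes passed with the IP change lower, beside 1.69% of all genes tested. The 2 fractions differ in level and spread, and the part of that in these differences was not tested.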

How the results depend on the processing

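The miR-103 IP against control IP count, 224 in the main setting, moved with the processing. It was 441 after cyclic loess, 417 with arrays set to a common centre and spread, 847 with only the 6 arrays compared in the fit, 1263 with array weights and 395 against the mean of 3 controls. In settings chosen after seeing the data it was 700 against miR-320 and miR-15b* after loess, and 421 without miR-15b* IP replicate 1. It ranged from 46, without control replicate 3, to 165, without control replicate 2. The miR-16 comparison gave 33 genes after loess, 39 after quantile normalization, 27 with a common centre and spread, 7 with its 6 arrays alone and 54 with weights, and 6 to 10 with an array left out. The difference between fractions gave 543 genes with no filter, 197 with the lowest 60% left out, 485 after loess, 530 with a common centre and spread and 717 with its 12 arrays alone, and 168 to 188 with an array left out of each fraction. The lysate gave 1182, without control lysate replicate 2, to 1655 genes with an array left out. The gene lists held 50 calls, 78 with a common centre and spread, 126 with 6 arrays, 156 with weights, 83 against miR-320 and miR-15b* after loess, 82 without miR-15b* IP replicate 1, and 8 to 31 with an array left out. ITGA2 turned to -0.41 against miR-320 and miR-15b*, and to -0.48 against those same groups after loess. Against the control after loess ITGA2 still rose, by 1.345. The causes were not tested.

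Samples with the same replicate number deviated together in 1 pair of 3 (correlations 0.258, -0.027 and 0.097). The best match of miR-103 replicate 2 was control replicate 3 (0.214). These values show no steady pairing by number between the miR-103 and control IP arrays, but 3 pairs are few. Replicate 3 had the highest SD over genes in every IP group except miR-103 and miR-107. In the control IP its SD was 1.99, beside 1.86 and 1.84 for replicates 1 and 2. Whether the number marks a batch shared by all groups was not tested. With the replicate number as a block the counts were 850 for the control comparison (1120 with loess), 27 for miR-16 (69 with loess), 786 for the difference between fractions and 124 for the lists with or without loess. The lysate gave 2834 genes with the block, beside 1906 in the main setting.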

Other observations

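Genes that code for microRNAs were present on the array as probe sets of their own. Of 36 tested, 0 were called by limma in either direction; their changes lay between -0.69 and 0.94 with a median of 0.36. IDO1 read 3.19, 3.75 and 4.40 in the miR-103 IP, against 6.23, 6.39 and 7.30 in the control IP, while its lysate change of 0.15 did not pass. Among 34 actin genes 3 fell in the IP, the Arp2/3 subunits ARPC1A (-1.55) and ARPC2 (-1.40) and the myosin light chain MYL6 (-1.21), beside 1.79% of all genes called lower. Leaving out any 1 array of the miR-103 or control IP left at most 1 of these calls, and ARPC2 and MYL6 were not called after cyclic loess. Of 30 lysosome genes GRN rose and NPC2, a cholesterol carrier, fell (-1.42). No gene of the extracellular matrix (38 tested), Wnt (29), interferon (23), sterol (19) or oxidative phosphorylation (31) list was called in the IP. The p53 (20 tested), inflammatory (16), unfolded protein (23) and membrane traffic (54) lists held 1 call each. These were the falls of CCNG1 (-1.97), TNFAIP3 (-1.24), CALR (-1.43) and VPS29 (-1.11). Over all genes tested 1.79% were called lower and 0.235% higher, so nothing is read from single calls in a list. With 1 array left out, TNFAIP3 was called in 4 of 6 fits, CCNG1 and NPC2 in 2, and CALR and VPS29 in 0. None of 10 neuronal, 11 glial and 1 haematopoietic marker genes was called.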
